A study of Bos taurus with 90 samples.

Results

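HRAS (ENSBTAG00000046644) and MAP2K6 (ENSBTAG00000001609) are 2 of the 24616 bovine genes counted in liver RNA from beef steers. HRAS encodes a small GTPase of the Ras family, and MAP2K6 encodes a kinase that activates the p38 mitogen-activated protein kinases. Both were chosen by name with results of these libraries known. MAP2K6 was picked out by its lower level in low RFI Charolais steers offered H1, and HRAS by its lower level in low RFI Charolais steers offered ZG. Those comparisons are therefore described here without a test, and every other comparison of breed, diet phase and RFI group could be tested.

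Ras proteins switch between a GDP-bound and a GTP-bound state. Exchange factors recruited by receptor tyrosine kinases load them with GTP, and GTP-bound Ras recruits RAF kinases, which start the MEK and ERK kinase cascade. MAP2K6 stands in a parallel cascade, in which stress and cytokine signals pass through MAP3 kinases to MAP2K3 and MAP2K6 and from there to p38. In liver the Ras and ERK cascade is known for its part in hepatocyte proliferation, and p38 signalling for its part in the stress response and in the control of glucose production.

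The 90 liver biopsies were of 2 breeds, Charolais (CH) and Holstein-Friesian (HF). Steers are castrated male cattle, and they were grouped by residual feed intake (RFI) within breed and diet, low RFI being the feed-efficient state. All steers passed through the same sequence of feeding phases. The phases sampled were a first high-concentrate phase (H1, barley-based with restricted grass silage), zero-grazed grass (ZG) and a second high-concentrate phase (H2, the same feed during finishing). Grass silage was offered between H1 and ZG, and grass was grazed between ZG and H2. Each biopsy was taken at the end of H1, ZG or H2. At the start of H1 the HF steers were older on average than the CH steers, so breed cannot be told apart from that age difference. The CH groups held 9 low and 11 high RFI steers for H1, 3 and 3 for ZG, and 9 and 8 for H2, and the HF groups held 7 and 9 for H1, 10 and 8 for ZG, and 5 and 8 for H2. Because the phases followed each other, diet cannot be told apart from age, season or time on trial, and 14 steers gave libraries in more than 1 phase.

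The sum of gene counts per library lay between 9097695 and 63621304 (median 18858293). MAP2K6 drew 121 to 1007 reads per library and HRAS 4 to 358, so counting error was larger for HRAS. Levels are given as CPM, the reads of a gene scaled to a common library size by the TMM method, and are not corrected for gene length, so the genes are not compared with each other in level. For 63 marker genes of liver and other cell types, the gene names used here gave 0 identifiers. FGG and FGA, which encode fibrinogen chains secreted by hepatocytes, ranked 6 and 7 by mean CPM among 13945 genes, with lowest values of 5697 and 5526 CPM in any library; these check genes were picked after the data were seen. In a bulk biopsy, fewer cells of a type and less RNA per cell cannot be told apart. The gene weights of a single principal component were computed from log2 CPM with the group means removed, and it held 28.9% of the variance within groups. Libraries were then scored with the group means kept, so the score can also differ between groups. On this score 4 libraries stood apart with a value under -2 (1 of CH H2 low RFI, 2 of HF ZG high RFI and 1 of HF ZG low RFI). This limit was set after the data were seen. The next lowest scores were -1.99 (steer 1639, HF H2 high RFI), -1.91 (steer 1798, HF ZG high RFI) and -1.88 (steer 788, CH ZG low RFI).

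MAP2K6 was highest at the end of the second concentrate phase in both breeds. In CH it averaged 15.9 ± 4.23 CPM (SD, n = 20) for H1, 13.4 ± 3.46 CPM (n = 6) for ZG and 23.4 ± 6.86 CPM (n = 17) for H2. In HF it averaged 15.5 ± 5.39 CPM (n = 16) for H1, 14.6 ± 2.40 CPM (n = 18) for ZG and 23.6 ± 8.25 CPM (n = 13) for H2. The order of these means was thus HF H2, CH H2, CH H1, HF H1, HF ZG and CH ZG, and the only step between neighbours that passed the test was that from CH H2 to CH H1.

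**Figure D1:**
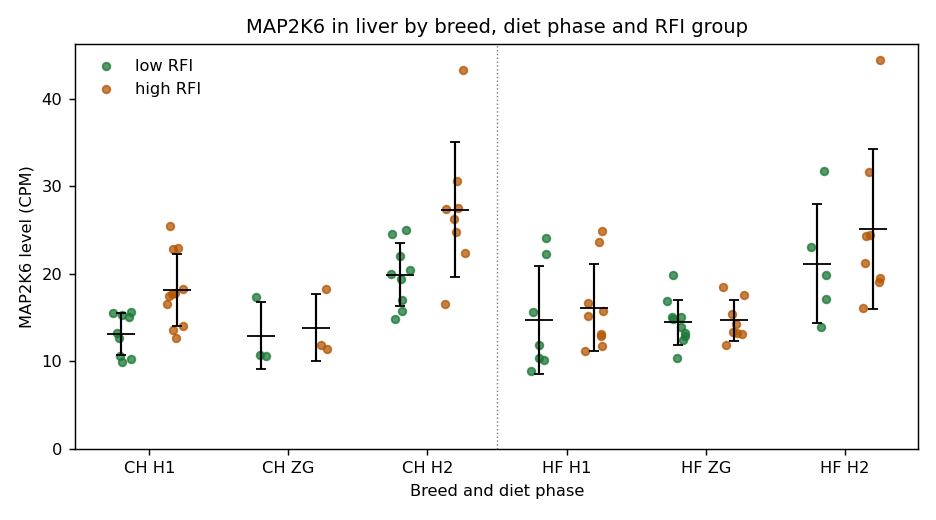
MAP2K6 level in CPM (y axis) for each library, by breed and diet phase (x axis) and RFI group (green low, orange high), with the group mean and SD as black bars. In both breeds the H2 libraries sit highest, with means of 23.4 CPM in CH and 23.6 CPM in HF, while H1 and ZG overlap.

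Every CH steer under H2 had more MAP2K6 than the median CH steer under ZG, and 13 of the 17 lay above all 6 ZG steers. The CH values ran from 10.7 to 18.2 CPM for ZG (median 11.6) and from 14.9 to 43.3 CPM for H2 (median 22.4). The H2 level was 1.75 times the ZG level, a log2 difference of 0.80 (SE 0.18, adjusted p = 0.0172, edgeR's quasi-likelihood test in the fit of 12 groups). In that comparison 2.82% of all genes were called at an adjusted p under 0.1, and MAP2K6 ranked 24 of 13945 by p. The call was lost when low RFI libraries were fitted alone (0.63, adjusted p = 0.537) and when high RFI libraries were fitted alone (1.01, adjusted p = 0.105).

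The HF steers moved the same way between these phases. Their MAP2K6 values ran from 10.4 to 19.9 CPM for ZG (median 14.1) and from 13.9 to 44.5 CPM for H2 (median 21.3). Of the 13 HF steers under H2, 8 lay above all 18 ZG steers and 12 lay above the ZG median. The log2 difference was 0.66 (SE 0.14, adjusted p = 0.00135), a ratio of 1.58, in a comparison in which 7.24% of genes were called, and MAP2K6 ranked 46. With low RFI libraries alone it was 0.56 and was no longer called (adjusted p = 0.416).

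H1 and H2 were the same feed at different ages, and MAP2K6 was higher for H2 here too. The CH values for H1 ran from 9.87 to 25.4 CPM (median 15.5), and 16 of the 17 H2 steers exceeded that median while 5 exceeded every H1 steer. The log2 difference was 0.60 (SE 0.12, adjusted p = 2.66e-05), a ratio of 1.51. The HF values for H1 ran from 8.94 to 24.95 CPM (median 14.1), and 12 of the 13 H2 steers exceeded that median while 3 exceeded every H1 steer. The log2 difference was 0.58 (SE 0.14, adjusted p = 0.000456). Calls were common in these comparisons, at 66.6% of genes for CH and 61.9% for HF, so a call by itself says little here, and MAP2K6 ranked 2218 and 2159 by p.

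MAP2K6 did not pass the test between ZG and H1. The log2 difference was -0.21 in CH (SE 0.17, adjusted p = 0.419, 95% interval -0.54 to 0.13), where 17.8% of genes were called. It was -0.08 in HF (SE 0.13, adjusted p = 0.61, 95% interval -0.33 to 0.17), where 58% of genes were called.

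**Figure D2:**
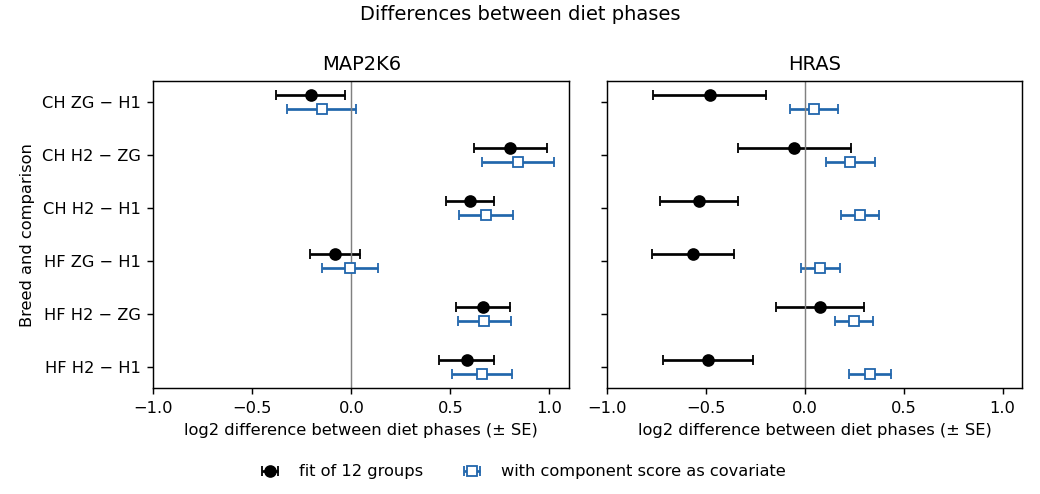
Log2 difference between diet phases with its SE (x axis) for each breed and comparison (y axis), MAP2K6 on the left and HRAS on the right; filled circles are the fit of 12 groups and open squares the same fit with each library's component score as a covariate. The H2 differences of MAP2K6 stay above 0 in both fits, whereas the HRAS differences from H1 lie below 0 in the first fit and above 0 in the second.

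HRAS was highest at the end of H1 in both breeds and more variable afterwards. In CH it averaged 5.84 ± 1.06 CPM (SD, n = 20) for H1, 4.59 ± 2.24 CPM (n = 6) for ZG and 4.06 ± 2.38 CPM (n = 17) for H2. In HF it averaged 6.15 ± 1.59 CPM (n = 16) for H1, 4.14 ± 2.15 CPM (n = 18) for ZG and 4.22 ± 1.65 CPM (n = 13) for H2. The coefficient of variation over all libraries of a phase was 21.9% for H1, 50.2% for ZG and 50.1% for H2, while counting error alone gave at most 15.8%. In the order HF H1, CH H1, CH ZG, HF H2, HF ZG and CH H2, no step between neighbours that the comparisons of breed or diet tested passed the test.

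**Figure D3:**
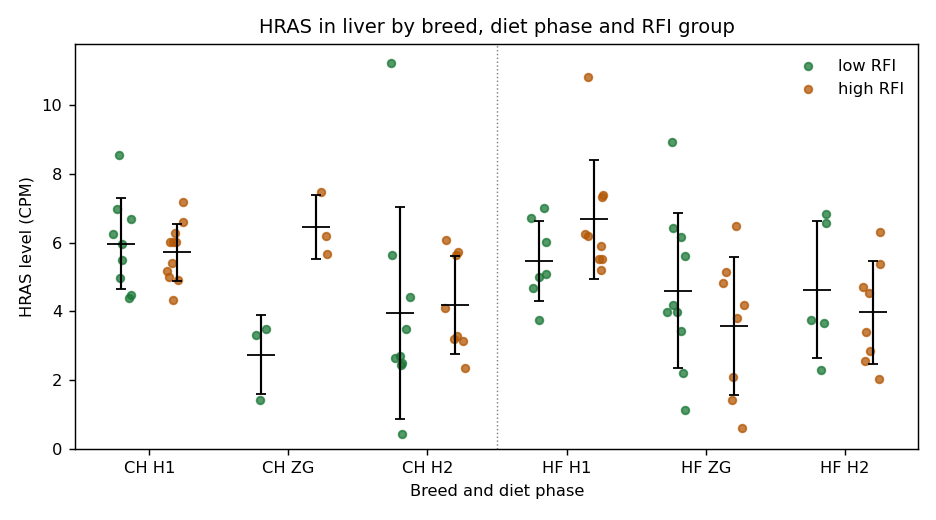
HRAS level in CPM (y axis) for each library, by breed and diet phase (x axis) and RFI group (green low, orange high), with the group mean and SD as black bars. The H1 libraries lie between 3.75 and 10.8 CPM, while ZG and H2 libraries spread from 0.443 to 11.2 CPM.

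Between H1 and H2, HRAS fell in CH by 0.53 on the log2 scale (SE 0.20, adjusted p = 0.0174). The CH values ran from 4.34 to 8.55 CPM for H1 (median 5.98) and from 0.443 to 11.2 CPM for H2 (median 3.28), and 11 of the 17 H2 steers lay below every H1 steer. In HF the difference was -0.49 (SE 0.23, adjusted p = 0.0626). The HF values ran from 3.75 to 10.8 CPM for H1 (median 5.95) and from 2.03 to 6.85 CPM for H2 (median 3.74), and 7 of the 13 H2 steers lay below every H1 steer. The HF call was lost when single low RFI steers of H2 were left out, at -0.45 without steer 1797, -0.40 without steer 2220 and -0.45 without steer 5612. It was also lost with low RFI libraries alone (-0.24, adjusted p = 0.64), and the CH call with high RFI libraries alone (-0.45, adjusted p = 0.129). Over all libraries, 66.6% of genes were called between these phases in CH and 61.9% in HF. HRAS ranked 7171 and 7944 of 13945 by p, so its calls by themselves say little.

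Between H1 and ZG, HRAS fell in HF by 0.56 on the log2 scale (SE 0.21, adjusted p = 0.0184), and 6 of the 18 ZG steers lay below every H1 steer. In that comparison 58% of all genes were called, and HRAS ranked 5679 of 13945 by p. The ZG values ran from 0.606 to 8.92 CPM. With low RFI libraries alone the difference was -0.26 and was not called (adjusted p = 0.574). In CH the difference between ZG and H1 was -0.48 (SE 0.28, adjusted p = 0.242), with wide error from 6 ZG steers. From ZG to H2 HRAS differed by -0.05 in CH (SE 0.28, 95% interval -0.61 to 0.51) and by 0.08 in HF (SE 0.22, 95% interval -0.36 to 0.51), neither called.

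HRAS followed the principal component closely. Over the 90 libraries, with group means removed, its log2 CPM had a Pearson r of 0.91 and a Spearman rho of 0.89 with the score, a larger absolute r than that of 94.8% of the 13945 genes. For MAP2K6 both measures were 0.14. The score was computed from all these genes, HRAS included. Its sign was set to give HRAS a positive weight, so the direction of the relation with HRAS was fixed in advance. The libraries differ in sequencing depth and in part share steers, so these values are descriptions. The 4 libraries that stood apart held from 4 HRAS reads (0.443 CPM, exact Poisson 95% interval 1.09 to 10.2 reads) to 21 reads (1.43 CPM), while their MAP2K6 level lay between 13.2 and 15.7 CPM. The interval covers counting error only.

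**Figure D4:**
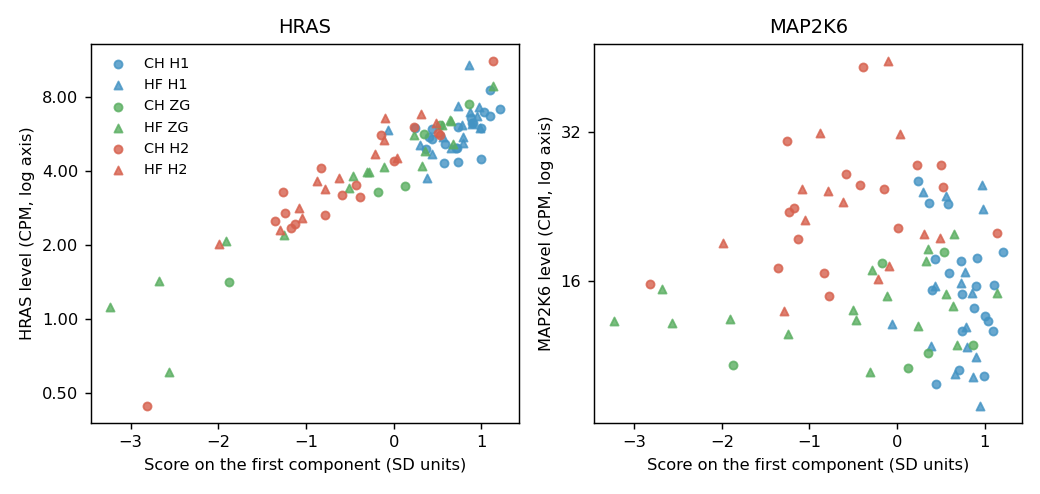
Level in CPM (log y axis) against the component score of the library (x axis, SD units), HRAS on the left and MAP2K6 on the right, coloured by diet phase with circles for CH and triangles for HF. HRAS rises with the score, whose sign was set by HRAS (r = 0.91 within groups), and MAP2K6 shows little relation (r = 0.14).

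The mean score was also higher for H1, at 0.75 in CH and 0.68 in HF, than for ZG (-0.03 and -0.49) and H2 (-0.57 and -0.56). With the score as a covariate the HRAS differences changed sign. Between H1 and H2 they became 0.28 in CH (adjusted p = 0.0258) and 0.33 in HF (adjusted p = 0.0181), and between H1 and ZG they became 0.05 in CH and 0.08 in HF. The direction of HRAS between H1 and the later phases therefore depended on this term. Because the score kept the group means, the term can also take up part of the difference between phases itself. Without the 4 libraries that stood apart, an alternative chosen after seeing the data, the differences between H1 and H2 were -0.45 in CH and -0.48 in HF, and that between H1 and ZG in HF was -0.36 (adjusted p = 0.0122, 0.0191 and 0.0912). What the component reflects was not tested.

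Between H1 and H2, steers sampled in both phases changed in the same direction as the group means. Of the 8 steers with libraries for both H1 and H2, 4 of each breed, 8 had more MAP2K6 for H2, by 0.23 to 0.59 on the log2 scale (median 0.51). The same 8 steers had less HRAS for H2, by a median log2 change of -0.55 (-1.61 to -0.33). Among them, steers 1100, 307, 2071 and 5632 were also in a different RFI group for H2 than for H1. All 4 steers with libraries for both ZG and H2 had more MAP2K6 for H2, with log2 changes of 0.17 to 1.18. HRAS was lower for H2 in 3 of these 4 steers, with a median log2 change of -0.87 (-1.34 to 0.41). The group differences of HRAS between ZG and H2 were small and not called, so these few steers differed from the group means there. Of the 6 steers with libraries for both H1 and ZG, 5 had less HRAS for ZG and 1 had more. MAP2K6 was lower for ZG in 4 of them and higher in 2. The largest single change was that of HRAS in HF steer 2069, from 5.89 CPM for H1 to 0.606 CPM for ZG, and its ZG library was among the 4 that stood apart. These libraries are also part of the group means above.

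**Figure D5:**
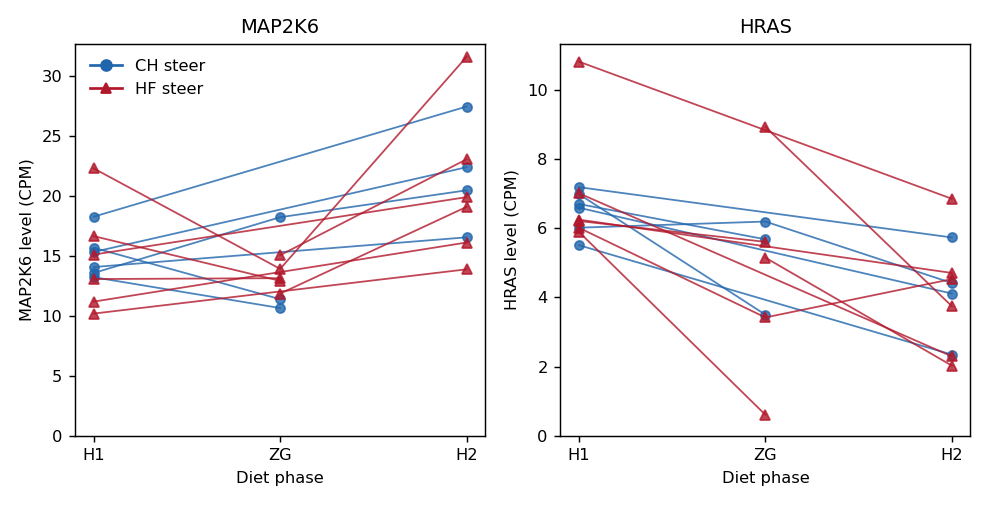
MAP2K6 (left) and HRAS (right) levels in CPM (y axis) in the steers with libraries in more than 1 diet phase (x axis); a line joins the libraries of a steer, blue circles for CH and red triangles for HF. Each line from H1 to H2, direct or through ZG, ends higher for MAP2K6 and lower for HRAS.

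Neither gene passed the test between breeds. HF and CH steers differed in MAP2K6 by 0.00027 for H1 (SE 0.12), 0.12 for ZG (SE 0.17) and -0.02 for H2 (SE 0.14) on the log2 scale. The widest of the 95% intervals ran from -0.22 to 0.47, for ZG. HRAS differed by 0.04 for H1 (SE 0.20), -0.05 for ZG (SE 0.28) and 0.08 for H2 (SE 0.23), with the widest 95% interval, for ZG, from -0.60 to 0.51. Over all genes, the breeds differed in 2.12% for H1, 0.0645% for ZG and 0.81% for H2. The sign of the HRAS difference changed between alternatives for each phase and that of MAP2K6 for H1 and H2, while the MAP2K6 difference for ZG stayed above 0 (0.03 to 0.26).

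The breeds did not differ detectably in how either gene changed between phases. The difference between the HF and CH changes was 0.12, -0.14 and -0.02 for MAP2K6 (SE 0.21, 0.22 and 0.19) and -0.08, 0.13 and 0.05 for HRAS (SE 0.35, 0.36 and 0.30), for ZG against H1, H2 against ZG and H2 against H1. edgeR called 0% of genes in each of these 3 interaction comparisons, with 418, 761 and 330 genes at an unadjusted p under 0.05, while DESeq2 called 1, 27 and 0 genes.

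The RFI comparison that chose MAP2K6 was that of CH steers offered H1. The level was 9.87, 13.2 and 15.7 CPM (lowest, median and highest) in 9 low RFI steers and 12.6, 17.7 and 25.4 CPM in 11 high RFI steers. Every low RFI steer lay below the high RFI median, and 3 lay below all high RFI steers. The log2 difference, low minus high, was -0.44 (SE 0.13). In that comparison edgeR called 0.0155% of genes (2 of 12920) and DESeq2 160 genes, and nothing is read from this for a gene chosen there.

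The RFI comparison that chose HRAS was that of CH steers offered ZG, with 3 steers a group. HRAS was 1.42, 3.30 and 3.50 CPM in the low RFI steers 788, 357 and 1831, and 5.67, 6.19 and 7.49 CPM in the high RFI steers 1816, 307 and 437. The groups did not overlap, and the log2 difference was -1.22 (SE 0.35). With 3 steers a group only 20 splits exist, so an exact test could not go below p = 0.1 even for full separation. HRAS was also chosen for its lower level here, so nothing is read from the separation. How many other genes separate in the same way was not counted. The component score of the same libraries was -1.88, -0.18 and 0.13 in the low RFI steers and 0.35, 0.53 and 0.86 in the high RFI steers. With the score as a covariate the difference was -0.50 (SE 0.23), and without steer 788 it was -0.91.

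In the comparisons that did not choose them, neither gene passed the test for RFI. The CH comparisons among these share steers with those that chose the genes, so they are not independent of the choice. Steers 1100, 1320, 307 and 364 had libraries for both H1 and H2, and steers 1816, 1831 and 307 for both H1 and ZG. edgeR called 0% of genes in each of the 5 comparisons other than CH under H1, with between 261 and 1755 genes at an unadjusted p under 0.05. DESeq2 called 158 and 4 genes in CH under ZG and H2, and 26, 2 and 5 genes in HF under H1, ZG and H2. Two-sided exact permutation tests of CPM over the splits of the steers were made for the 10 remaining comparisons of either gene.

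The mean MAP2K6 level was below that of high RFI steers in all 5 of its remaining comparisons, but no difference passed the test after adjustment, and the sign for CH under ZG changed when single steers were left out (-0.36 to 0.15). For CH under H2 it was 19.9 ± 3.61 CPM (n = 9) in low and 27.4 ± 7.68 CPM (n = 8) in high RFI steers, and all 9 low RFI steers lay below the high RFI median of 26.8 CPM. The log2 difference was -0.45 (SE 0.15), with an exact p of 0.0108, 0.108 after Benjamini-Hochberg adjustment over the 10 tests, and an adjusted p of 0.998 over all genes with edgeR. The other log2 differences were -0.07 for CH under ZG (SE 0.28), -0.12 for HF under H1 (SE 0.23), -0.03 for HF under ZG (SE 0.13) and -0.24 for HF under H2 (SE 0.23), with exact p from 0.455 to 0.868. With 3 steers a group the smallest exact p for CH under ZG was 0.1. Averaged over the 5 comparisons, a summary added after the data were seen, the log2 difference was -0.19 (SE 0.10, adjusted p = 0.733), with 0% of genes called.

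HRAS had no common direction with RFI. Its log2 difference was 0.07 for CH under H1 (SE 0.12), -0.10 for CH under H2 (SE 0.36), -0.28 for HF under H1 (SE 0.16), 0.35 for HF under ZG (SE 0.38) and 0.23 for HF under H2 (SE 0.29). The exact p ran from 0.126, for HF under H1, to 0.869. For HF under H1 the low RFI steers had 5.47 ± 1.17 CPM (n = 7) and the high RFI steers 6.68 ± 1.73 CPM (n = 9), and 4 of the 7 low RFI steers lay below all high RFI steers. The average over these 5 comparisons was 0.05 (SE 0.13, adjusted p = 1.00), with 0% of genes called.

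Of the 103 other genes in 12 lists of the Ras, ERK and p38 pathways, 3 could be matched to an identifier, namely FGFR3, a receptor tyrosine kinase that signals through Ras, CCND1, the cyclin D1 gene induced by ERK signalling, and GADD45G, a stress-induced gene whose product binds the p38 activator MAP3K4. All 3 had lower levels for H2 than for H1 in both breeds. FGFR3 averaged 54.2 ± 14.2 CPM for H1 and 22.4 ± 12.9 CPM for H2 in CH, and 40.3 ± 12.2 and 19.8 ± 11.4 CPM in HF. Its log2 difference was -1.29 in CH (SE 0.27, adjusted p = 5.42e-05) and -0.95 in HF (SE 0.31, adjusted p = 0.00854). CCND1 differed by -1.30 and -1.14 and GADD45G by -1.28 and -1.11, all called. Calls were common there, at 66.6% of all genes for CH and 61.9% for HF, so little can be read from calls of 3 genes.

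The 3 genes behaved in part like HRAS between H1 and ZG. In HF all 3 fell, by log2 values of -0.78 for FGFR3, -1.06 for CCND1 and -0.77 for GADD45G. In CH FGFR3 (-0.97) and CCND1 (-0.90) were called and GADD45G (-0.82) was not. Over all genes, 58% were called between H1 and ZG in HF and 17.8% in CH. With edgeR none was called between ZG and H2 or between breeds. Their RFI differences are not read here, because the study called these genes for RFI in these same libraries. With the component score as a covariate the FGFR3 differences between H1 and H2 were -0.08 in CH and 0.18 in HF and were not called, while CCND1 (-0.36) and GADD45G (-0.61) stayed called in CH only.

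Of the other genes that the study's pathway table places in the pathways in which it lists HRAS, 17 were examined here, these 3 among them. EIF1, which it also lists there, was not examined. The table lists 11 genes beside MAP2K6. The study picked these genes from the RFI comparisons of these libraries, and they are described below for diet only. Of the 17 examined beside HRAS, 11 were lower and 2 higher for H2 than for H1 in CH. There 76.5% were called against 66.6% of all genes, with a median log2 difference of -0.60 against 0.03. In HF 10 were lower and 0 higher, with 58.8% called against 61.9% and a median of -0.66 against 0.00442. The shares called were thus near those over all genes. They included MIF, a cytokine gene (-1.69 in CH and -1.62 in HF), BCAR1, an adaptor of integrin signalling (-1.84 and -1.60), and ATF5, a stress-response transcription factor gene (-1.46 and -1.61). Between ZG and H2 none of the 17 was called in either breed, in comparisons in which 2.82% (CH) and 7.24% (HF) of all genes were called, so little can be read from this count.

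Of the 11 genes listed beside MAP2K6, 10 were matched. For H2 against H1, 4 were higher and 3 lower in CH (70% called against 66.6% of all genes), and 1 was higher and 4 lower in HF (50% against 61.9%), so these shares too were near or below those over all genes. IRS2, which encodes an adaptor of the insulin receptor, moved opposite to MAP2K6, by -1.99 in CH and -2.68 in HF, and also from ZG to H2 in HF (-1.75, adjusted p = 0.0162). JUN, a target of the stress kinases, differed by -0.60 in CH and -0.46 in HF between H1 and H2, and MAPK7, the ERK5 kinase gene, by -1.15 and -0.99.

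HRAS and MAP2K6 varied almost independently of each other, with an r of 0.16 over the 90 libraries once group means were removed and of -0.01 without removal. Names were at hand only for genes that the study called for RFI in these libraries. The other genes of the 13945 fitted were not ranked, so closer ones may exist. Among 327 other named genes, those most like HRAS were MXD4, a MAX-binding repressor gene (r = 0.91), SELENOO, a mitochondrial selenoprotein gene (0.90), TOLLIP, an adaptor of Toll-like receptor signalling (0.90), GPC1, a cell-surface glypican gene (0.90), and ERF, an ETS-family repressor gene (0.89). Those with the lowest r were ASNSD1 (-0.72), DLD, a subunit shared by mitochondrial dehydrogenase complexes (-0.71), and YWHAE, a 14-3-3 protein gene (-0.70). The Spearman rho of these 8 genes with HRAS lay between 0.82 and 0.88 for the first 5 and between -0.65 and -0.61 for the last 3. Their absolute r with the component score lay between 0.78 and 0.97. For MAP2K6 the likeness was weaker. The highest r were those of WWC1, a Hippo pathway scaffold gene (0.43), ACMSD, an enzyme of tryptophan catabolism (0.35), RAB20 (0.30), UBE2S (0.30) and KRBA1 (0.29), and the lowest those of the collectin gene CL43 (-0.41), the complement protease gene C1R (-0.32) and FETUB, which encodes fetuin B (-0.28). The rho of the first 5 lay between 0.28 and 0.46 and that of the last 3 between -0.33 and -0.27. RAB20, UBE2S and KRBA1 had an r of -0.05, 0.0019 and -0.18 without removal of the group means.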

How the data were processed

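The authors trimmed 50 bp single-end reads with cutadapt, aligned them to UMD3.1 with STAR (version 2.5.3a per the submitters' processing notes) and deposited raw counts per Ensembl 87 gene, with no normalization. The strand column that was counted is not given in the sources used here. The members and lists were chosen with earlier results of these data known. Names came from 328 identifiers in the study's gene table; HRAS and MAP2K6 are given in every comparison, other pathway genes where they could be matched, and for likeness the 5 highest and 3 lowest r. Genes named from the study's pathway table were picked after their values were seen.

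Counts were tested with edgeR 4.0.16 in R 4.3.3 (quasi-likelihood, TMM, filterByExpr, robust, Benjamini-Hochberg; called at an adjusted p under 0.1). RFI was fitted within each breed and diet. Diet, breed and their interaction were contrasts of a fit of 12 groups, averaged equally over RFI groups. SE is the log2 difference over the square root of F, and 95% intervals assume a normal error. Log2 CPM used a prior count of 2. Python 3.11.15 and scipy 1.17.1 made the exact tests. Fits were tested on simulated data. Steer numbers in the labels were taken to pair libraries of an animal. The deviations of 14 of 18 such pairs correlated above 0.1 (range -0.42 to 0.50). No value for pairs of different steers is given beside this, so the count does not test the pairing. Steer number 1797 occurs in both breeds and was treated as separate animals. Alternatives used DESeq2 1.42.0 and limma 3.58.1.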

Additional observations from a re-analysis of the deposited data

Results flagged for a closer look

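In 18 tests of a gene in a group of 4 to 10 steers, 2 libraries lay far from the rest of their group, where chance flags about 1 in 20 at each test. HRAS was 11.2 CPM in steer 454 of the CH H2 low RFI group, against 5.64 CPM in the next highest of 9 steers, and that library's component score was 1.14. HRAS was 10.8 CPM in steer 2071 of the HF H1 high RFI group, against 7.40 CPM in the next highest of 9 steers, in the library with the fewest counted reads (9097695). The same steer had the highest HRAS level of HF under H2, at 6.85 CPM.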

How the results depend on the processing

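The MAP2K6 rise from H1 to H2 kept its call under every alternative run in both breeds (log2 0.53 to 0.68 in CH and 0.48 to 0.72 in HF), and outside the comparisons that chose them neither gene was called for RFI, breed or interaction under any alternative. When libraries of an animal were paired as a replicate block in limma-voom (block correlation 0.124), the H2 minus H1 differences were 0.59 (CH) and 0.60 (HF) for MAP2K6 and -0.71 and -0.56 for HRAS, and no call of either gene changed; signs changed for MAP2K6 between breeds under H1 (-0.046) and in the H2 minus H1 interaction (0.0082), and for FGFR3 (0.062) and CCND1 (0.02) in HF H2 minus ZG. In every list below the cause was not tested. With the component score as a covariate, HRAS became 0.049 for CH ZG minus H1, 0.23 for CH H2 minus ZG, 0.28 for CH H2 minus H1, 0.08, 0.25 (now called) and 0.33 for the same in HF, 0.13 between breeds under ZG, 0.031 for the ZG minus H1 interaction, -0.0004 for the mean RFI difference and -0.50 for RFI in CH under ZG. MAP2K6 became 0.082 for RFI in CH under ZG, FGFR3 0.11 for CH H2 minus ZG and 0.0078, 0.18 and 0.18 for HF ZG minus H1, H2 minus ZG and H2 minus H1, and CCND1 0.19 for HF H2 minus ZG. With low RFI libraries only, which are fewer, HRAS was -1.16 (now called), 0.52, -0.26 and -0.24 for CH ZG minus H1, CH H2 minus ZG, HF ZG minus H1 and HF H2 minus H1, -0.15 and 0.74 between breeds under H1 and ZG, and 0.90 and -0.50 for the ZG minus H1 and H2 minus ZG interactions; MAP2K6 was 0.63 and 0.56 for H2 minus ZG in CH and HF and 0.085 between breeds under H2; and FGFR3, CCND1 and GADD45G were 0.15, 0.36 and 0.34 for CH H2 minus ZG. With high RFI libraries only, HRAS was 0.15 for CH ZG minus H1, -0.45 for CH H2 minus H1, -0.076 between breeds under H2 and -0.29 for the H2 minus H1 interaction; MAP2K6 was 1.01 for CH H2 minus ZG, -0.16 between breeds under H1 and 0.042 for the H2 minus H1 interaction; and GADD45G was 0.43 for CH ZG minus H1. With limma-voom quality weights, HRAS was -0.40 for CH ZG minus H1 (now called), -0.089 for HF H2 minus ZG, -0.026 between breeds under H1 and -0.07 for the mean RFI difference, and MAP2K6 was 0.087 for HF ZG minus H1, -0.13 and 0.0077 between breeds under H1 and H2, 0.14 for the H2 minus H1 interaction and 0.089 for RFI in CH under ZG. Without the 4 libraries scoring under -2, HRAS was 0.029 and -0.12 for H2 minus ZG in CH and HF, 0.16 between breeds under ZG, 0.12, -0.15 and -0.028 for the ZG minus H1, H2 minus ZG and H2 minus H1 interactions, and 0.04 for RFI in CH under H2. The MAP2K6 breed difference under H1 was -0.0052 with DESeq2 and with its size factors and -0.012 with no filter. HRAS for CH ZG minus H1 was called (-0.49) when 4 groups were fitted alone, and HRAS for HF H2 minus H1 was not called at an adjusted p under 0.05 (-0.49) or without steer 1797 (-0.45). HRAS was not tested in the 12-group fit with at least 10 counts in every library, since 2 libraries had fewer.

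Leaving out each steer of the small groups in turn gave HRAS ranges of -0.21 to 0.048 for CH H2 minus ZG, -0.014 to 0.16 for HF H2 minus ZG, -0.58 to -0.40 for HF H2 minus H1 (not called without 3 of the 5 steers), -0.20 to 0.056 and -0.0067 to 0.17 between breeds under ZG and H2, and -0.24 to 0.017 and -0.046 to 0.13 for the ZG minus H1 and H2 minus H1 interactions. The MAP2K6 ranges were -0.36 to 0.15 for RFI in CH under ZG and -0.11 to 0.042 both between breeds under H2 and in the H2 minus H1 interaction, and that of CCND1 was -0.15 to 0.017 for HF H2 minus ZG.

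The count of genes called depended more on the setting. It ranged from 14 to 5274 for CH ZG minus H1 (2476 as reported), from 2 to 4630 for CH H2 minus ZG (393), from 4642 to 9876 for CH H2 minus H1 (9284), from 3926 to 8483 for HF ZG minus H1 (8089), from 16 to 3365 for HF H2 minus ZG (1010), from 3954 to 9472 for HF H2 minus H1 (8633), from 1 to 724, 0 to 119 and 6 to 279 between breeds under H1, ZG and H2 (295, 9 and 113), and from 1 to 160 for RFI in CH under H1 (2). Without 1 steer it was 322 (788) for CH ZG minus H1, 57 (1831) and 717 (788) for CH H2 minus ZG, and 583 (2220) for HF H2 minus ZG. Where a list's share is read against these counts it applies to the setting reported. The smallest groups, with 3 steers, limit the CH ZG comparisons, and 4 to 21 HRAS reads limit the libraries that stood apart.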
